A study of Mus musculus with 5 samples.

Results

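The genes described here are the enzymes that make, recycle and use glutathione or that remove peroxides and superoxide. They were taken by name from the 17389 genes of a mouse kidney single-cell RNA-seq count table. Symbol patterns for the glutathione S-transferases (Gst), microsomal glutathione S-transferases (Mgst), glutathione peroxidases (Gpx) and peroxiredoxins (Prdx) gave 36 genes, and a list of names (Gclc, Gclm, Gss, Gsr, Ggt1, Sod1, Sod2, Sod3, Txn1 and Txnrd1) gave 10 more, so there were 46 members.

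Glutathione is a small thiol built from glutamate, cysteine and glycine. Glutathione peroxidases and peroxiredoxins spend thiols to reduce hydrogen peroxide and lipid peroxides, while glutathione S-transferases join glutathione to reactive compounds so that they can be exported. The proximal tubule, which reabsorbs most of the filtrate with mitochondrial energy, is known for a high turnover of glutathione, and in rodents many of its transport and conjugation genes are known to differ between males and females.

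The study compared kidneys of Fame (Ccdc198) knockout mice with those of their wild type littermates, adult males and females on the FVB/Ant background. There were 3 knockout libraries (KO female, KO male and KO mix, the last one pooled from both sexes) and 2 wild type libraries (WT female and WT mix). The knockout allele carries stop codons placed after the start codon by CRISPR/Cas9 in the germline, so that every cell of the animal carries it. Mice were perfused, 1 kidney of each was dissociated with collagenase and trypsin, and the 3′ ends of the RNA of single cells were counted as unique molecular identifiers (UMIs). The sources do not say how many animals entered a library, and wild type has no library of males alone. The p-values below thus measure the spread between libraries, or in the sex tests between pairs of male and female sums.

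The files hold 14197 cells and 60492486 UMIs, with 9791091 to 15950717 UMIs a library, and 25 barcodes occur in more than 1 library. The deposited annotation puts the libraries of a single sex in run 2 and both mixed libraries in run 3, and the median mitochondrial share of UMIs per cell was 28.4 to 29.4% in run 3 and 12.6 to 15.3% in run 2. Xist and Y-linked UMIs called 425 cells male and 1445 female in KO mix, and 800 male and 378 female in WT mix, and no cell of a single-sex library was called to the other sex. Tags of the targeted gene made up 148, 127 and 83.1 counts per 1000000 UMIs (CPM) in KO female, KO male and KO mix, and 196 and 71.5 CPM in WT female and WT mix. The allele adds stop codons and deletes no part of the gene, so a tag level alone checks no label. The cell types are those of the authors. Their summed markers stood high in the matching type (proximal tubule markers 12723 to 24047 CPM in PTs, the straight part, 14315 to 20528 CPM in PTc, the convoluted part, and 620 to 1850 CPM in LOH, the loop of Henle). Markers of the convoluted part summed to 860 to 1629 CPM in PTc and 73.5 to 442 CPM in PTs. Markers of the straight part overlapped between the types, at 153 to 2430 CPM in PTs and 23.2 to 668 CPM in PTc. In PT1, PT2 and PTf these straight markers had 29.1 to 739, 54.9 to 1469 and 489 to 1385 CPM. PT1 and PT2 are proximal tubule clusters that the authors left unidentified, and PTf is the cluster they called female-specific, with under 20 cells in KO male. PT1 cells were shallow, with a median of 1346 to 1770 UMIs a cell, and the nuclear RNAs Malat1 and Neat1 summed to 2104 to 6182 CPM there against 14889 to 53794 CPM in PTs.

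Levels below are CPM of all UMIs that a library holds in a cell type. Each 3′ tag counts 1 molecule whatever the length of the gene, but a gene's capture depends on its 3′ end, so levels of different genes compare only roughly. Of the 46 members, 33 reached a mean of 100 CPM in their highest type, and 23 of these (69.7%) were highest in a proximal tubule type, against 969 of 4028 genes (24.1%) at that level in the whole table. PT1 was the highest type for 15, PTf for 4, PTc for 2 and PTs for 2. The members together took 2.62 to 3.11% of the UMIs in PT1, 2.07 to 2.87% in PTc and 1.92 to 2.34% in PTs, against 0.787 to 0.993% in LOH and 0.757 to 1.15% in glomerular endothelium (GL endo). The remaining 13 members stayed under 100 CPM in every type and had 5 to 3026 UMIs in the whole table. They include Txnrd1, the reductase of thioredoxin, with its highest mean of 92.5 CPM, and Gpx6, which reached 99.4 ± 19.2 CPM in LOH (SD, n = 5). Cell types were clustered on these same cells, so levels between types are a description without a test.

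**Figure D1:**
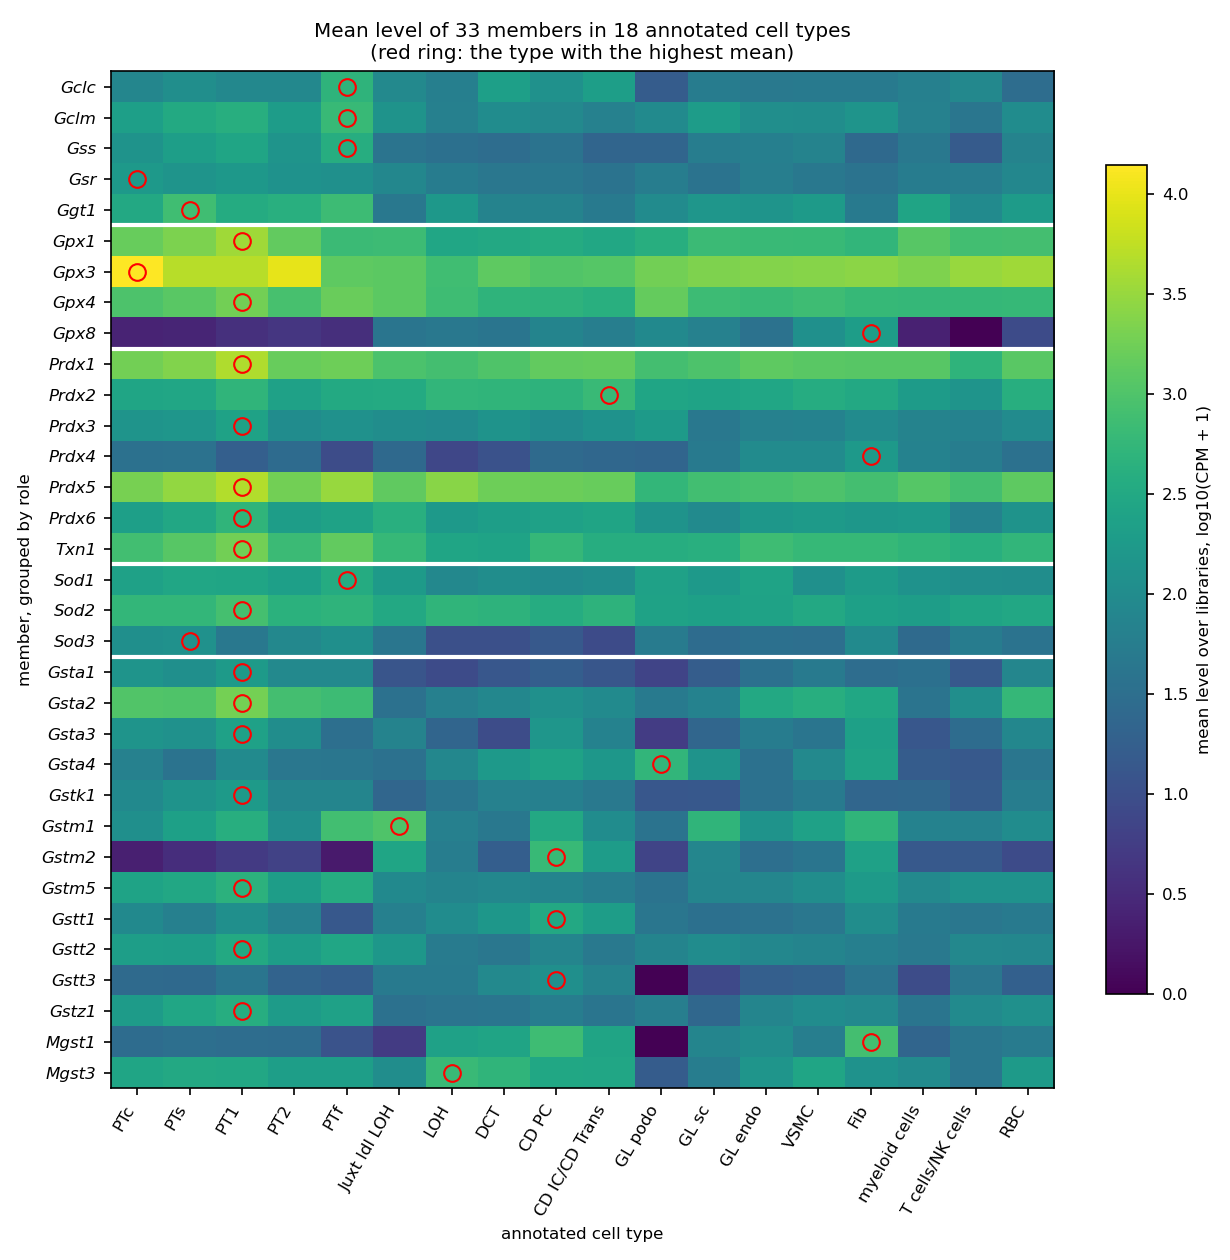
Mean level over libraries of the 33 members at 100 CPM or more in their highest type (rows, grouped by role) in 18 annotated cell types (columns), coloured by log10(CPM + 1). Red rings mark the highest type of each member, which is a proximal tubule type (PTc, PTs, PT1, PT2 or PTf) for 23 members.

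Glutathione is built in a pair of steps, by glutamate-cysteine ligase (catalytic subunit Gclc, modifier subunit Gclm) and then by glutathione synthetase (Gss). All of these genes were highest in PTf. Gclc had 473 and 630.1 CPM in KO female and KO mix and 435 and 420.2 CPM in WT female and WT mix (489.7 ± 96.2, SD, n = 4), above every library of the second type, DCT (the distal convoluted tubule), at 178 to 246 CPM. Gclm had 606 and 726 CPM in KO female and KO mix and 452 and 708 CPM in WT female and WT mix. Gss had 467 and 339 CPM in the same KO libraries and 386 and 335 CPM in the WT libraries. Ggt1, the brush border γ-glutamyl transferase that breaks down filtered glutathione, was highest in PTs by the mean over libraries. It had 537, 1190.5 and 668 CPM there in KO female, KO male and KO mix and 499 and 847 CPM in WT female and WT mix. KO male was the highest library and the female libraries the lowest. In KO female and WT female the highest type of Ggt1 was PTf, whose mean of 688 CPM holds no KO male sum. Gsr, the reductase that recycles oxidised glutathione, was even across libraries in PTc, at 183, 169.8 and 149.98 CPM in the KO libraries and 169.5 and 165 CPM in the WT libraries.

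Gpx3, the secreted plasma glutathione peroxidase that the kidney is known to supply to the blood, was the most abundant member. It lies on chromosome 11 (GRCm38, 54902453 to 54910377, forward strand). In PTc it had 14186, 9757 and 15859 CPM in KO female, KO male and KO mix and 13435 and 16869 CPM in WT female and WT mix (14021 ± 2741, SD, n = 5). In PTs it had 6193, 1878 and 5496 CPM in the KO libraries and 6078 and 5489 CPM in the WT libraries. All 5 PTc libraries lay above all 5 PTs libraries, and KO male was the lowest library in both types. In LOH the level was 656, 174 and 1425 CPM in KO female, KO male and KO mix and 458 and 1048 CPM in WT female and WT mix. Free RNA from broken proximal tubule cells can give such UMIs. The level that proximal tubule RNA alone would give, scaled by 7 proximal tubule markers, was somewhat below this in every library (observed over expected 1.03 to 1.55). The part of free RNA in the LOH level was not tested.

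Gpx1, the cytosolic glutathione peroxidase, was highest in PT1, with 2381, 2038 and 5272 CPM in KO female, KO male and KO mix and 2311 and 5906 CPM in WT female and WT mix. Both mixed libraries stood above the others by more than the spread among them, and the same order held in PTs (1625, 1318 and 3058 CPM in the KO libraries, 1538 and 3067 CPM in the WT libraries). Gpx4, which reduces lipid peroxides in membranes, was evenly high in PT1 at 1858 ± 177 CPM (SD, n = 5), although 88.9% of the 50-base windows in its last 500 bases also occur in a pseudogene or another gene, so that reads may be lost or shared. Gpx8, a peroxidase of the endoplasmic reticulum, was highest in fibroblasts (Fib), where only 2 libraries had 20 cells and the values were 45.7 CPM in KO mix and 362 CPM in WT female. Fibroblasts were its highest type in WT female alone.

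Among the peroxiredoxins, Prdx5 (mitochondria, peroxisomes and cytosol) and Prdx1 (cytosol) were the most abundant. Prdx5 had 3921, 4944 and 4729 CPM in PT1 of KO female, KO male and KO mix and 4045 and 5377 CPM in WT female and WT mix. In LOH it still had 2165 to 3029 CPM, 6.27 to 30.0 times the level that free proximal tubule RNA would give. Prdx1 had 3955, 7044 and 3117 CPM in PT1 of the KO libraries and 4386 and 3653 CPM in the WT libraries, with KO male far above the others. Txn1, the thioredoxin that reduces peroxiredoxins, had 2181, 2218 and 1161 CPM in PT1 of the KO libraries and 2283 and 1387 CPM in the WT libraries, so here the mixed libraries were the low ones. Prdx6 (522 ± 141 CPM) and the mitochondrial Prdx3 (246 ± 63.0 CPM, SD, n = 5 each) were highest in PT1 as well. Prdx2 was highest in the intercalated and transitional cells of the collecting duct (CD IC/CD Trans), at 650.0 ± 241 CPM, and Prdx4, of the endoplasmic reticulum, in fibroblasts, at 114 CPM in KO mix and 226 CPM in WT female. In KO mix and WT mix the highest type of Prdx2 was PT1.

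Of the superoxide dismutases, mitochondrial Sod2 was highest in PT1, at 912, 765 and 836 CPM in KO female, KO male and KO mix and 782 and 823 CPM in WT female and WT mix, above every library of PTc (523 to 614 CPM). Cytosolic Sod1 was highest in PTf (361 ± 130.0 CPM, SD, n = 4) and extracellular Sod3, by the mean over libraries, in PTs (123 ± 26.7 CPM, SD, n = 5). The PTc mean of Sod3 was close, at 117 CPM. PTs was its highest type in KO male and WT mix alone, PTf in KO female and WT female, and fibroblasts in KO mix.

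The transferases divided along the nephron. The alpha members Gsta1, Gsta2 and Gsta3, the mitochondrial and peroxisomal Gstk1, Gstm5, Gstt2 and Gstz1 (an isomerase of tyrosine breakdown) were highest in PT1 by the mean over libraries. For Gsta1 and Gsta3 that mean rested on the female libraries. Gsta1 had 389.6, 11.9 and 75.1 CPM in PT1 of KO female, KO male and KO mix and 422 and 20.4 CPM in WT female and WT mix, and Gsta3 493, 107 and 95.5 CPM in the KO libraries and 401 and 67.4 CPM in the WT libraries. PT1 was the highest type of both genes in only 2 of 5 libraries, KO female and WT female. For Gsta2 the highest type was PTc in KO mix and WT mix. Gstm2 was instead highest in the principal cells of the collecting duct (CD PC), with 612, 424 and 655 CPM in KO female, KO male and KO mix and 642 and 754 CPM in WT female and WT mix, and it was near 0 in the proximal tubule (0.227 to 5.85 CPM in PTs, 1 to 28 UMIs). Gstt1 (321 ± 24.3 CPM) and Gstt3 (116 ± 15.6 CPM, SD, n = 5 each) were highest in the same cells. Gstm1 peaked in the juxtamedullary loop cells (Juxt ldl LOH) at 1018 CPM in KO mix and 1031 CPM in WT mix, the only libraries with 20 such cells, and Gsta4 in podocytes (GL podo) at 492 and 565 CPM in the same pair of libraries. The microsomal Mgst3 was highest in LOH, at 798, 734 and 479 CPM in the KO libraries and 751 and 498 CPM in the WT libraries, which was 17 to 95.5 times what free proximal tubule RNA would give. Mgst1 was highest in fibroblasts by the mean over libraries (206 CPM in KO mix, 1403 CPM in WT female), followed by CD PC (337 to 1074 CPM). Fibroblasts were its highest type in WT female alone, and CD PC was in every other library.

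**Figure D2:**
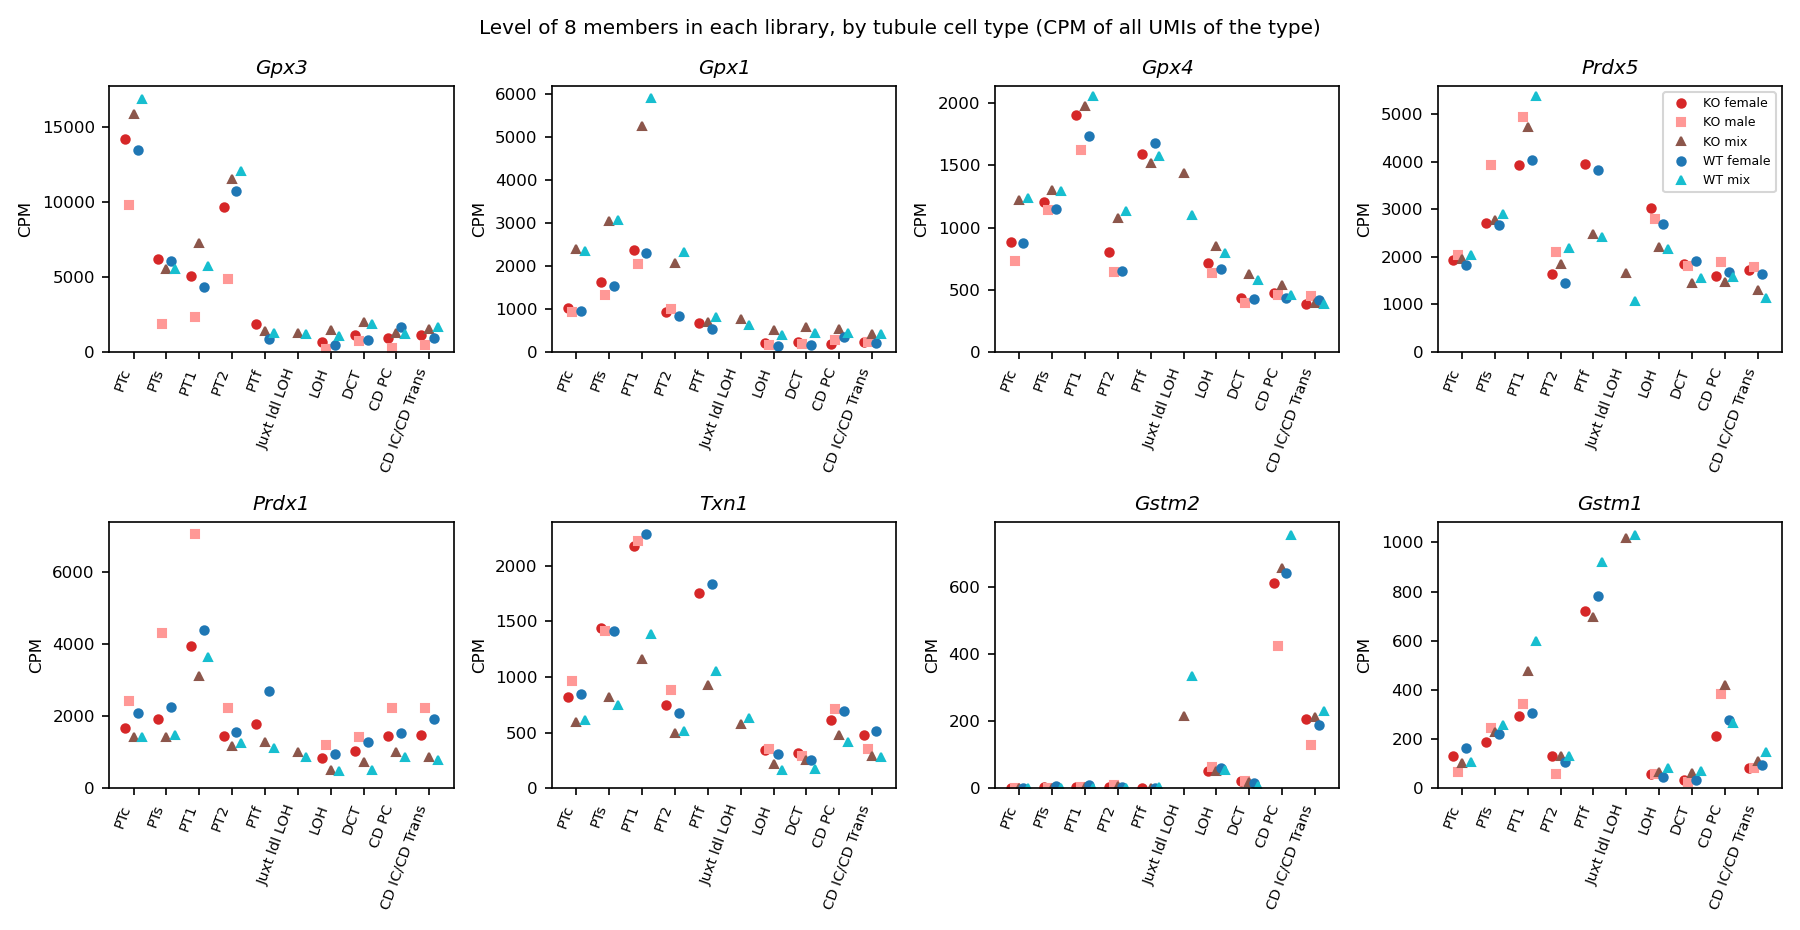
Level (CPM of all UMIs of the type) of 8 members in each library, by tubule cell type, 1 point per library. Gpx3 is highest in PTc, Gpx1, Gpx4, Prdx5, Prdx1 and Txn1 in PT1, Gstm2 in CD PC and Gstm1 in Juxt ldl LOH, and the mixed libraries (run 3) lie above the other libraries for Gpx1 and below them for Txn1 in PT1.

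Between types, 19 of 39 members at 10 CPM or more were higher in every PTs library than in every LOH library, against 15.5% of all genes, and 7 were lower, against 25.7% of all genes. Between PTs and PTc, 3 of 35 members (Gstm1, Ggt1 and Prdx5) were higher in every PTs library, against 3.01% of all genes, and 1 (Gpx3) was lower in every one, against 5.56%. PT1 lay above PTs for 4 of 37 members, Gstm1, Prdx2, Gpx4 and Sod2 (8.79% of all genes), and below it for 1, Sod3 (14.3%). PTc lay above LOH for 17 of 38 members (16.8% of all genes) and below it for 9 (21.2%).

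The question of the study for these cells was whether loss of Fame alters gene expression. No member passed the test between knockout and wild type. In each of 11 cell types, 0% of the 1654 to 10342 genes tested passed an adjusted p of 0.05 (edgeR's quasi-likelihood test with Benjamini-Hochberg adjustment), and DESeq2 and limma-voom also called none. Over the 362 tests of members, 20 to 39 a type, none had an unadjusted p under 0.05 with edgeR or DESeq2, and 1 did with limma-voom, while 2 to 59 genes a type did with edgeR. The median log2 fold change of the members was −0.08 in PTs (15 of 39 above 0; all genes 0.003), −0.08 in PTc (10 of 36 above 0; all genes 0.0004) and 0.03 in LOH (27 of 39 above 0; all genes 0.004). It was higher in glomerular endothelium (GL endo), at 0.28 with 27 of 33 above 0 (all genes −0.004), in vascular smooth muscle (VSMC), at 0.21 with 12 of 20 above 0, and in CD PC, at 0.14 with 22 of 33 above 0. In the other 5 types it lay between −0.04 and 0.04. Members share the same libraries, so these counts are a description without a test. In GL endo, proximal tubule markers stood at 29.0, 33.1 and 21.8% of their proximal tubule level in KO female, KO male and KO mix. In WT female and WT mix they stood at 27.8 and 18.8%. Observed over expected from free RNA was 1.18 to 1.46 for Gpx1 and 2.86 to 4.51 for Sod1, and the part of free RNA was not tested.

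The lowest p of a member belonged to Gss in LOH, with 34.5, 34.7 and 45.3 CPM in KO female, KO male and KO mix and 26.4 and 24.3 CPM in WT female and WT mix. All KO libraries lay above both WT libraries, and the log2 fold change was 0.59 ± 0.29 (SE; 95% interval −0.09 to 1.26; edgeR adjusted p = 0.9998). Gstz1 in LOH likewise had 52.7, 39.7 and 40.1 CPM in the KO libraries and 36.5 and 26.0 CPM in the WT libraries, a log2 fold change of 0.47 ± 0.26 (edgeR adjusted p = 0.9998). Observed over expected from free proximal tubule RNA in LOH was 1.25 to 4.45 for Gss and 1.46 to 3.19 for Gstz1. Proximal tubule markers there stood at 5.55, 4.80 and 13.2% of their proximal tubule level in KO female, KO male and KO mix. In WT female and WT mix they stood at 3.63 and 9.92%. The part of free RNA in both genes was not tested. In PT1 the lowest p values were those of Prdx4, at 1.04 (95% interval −0.34 to 2.42) with 7 to 20 UMIs a library, and Sod3, at −0.63 (−1.79 to 0.54). In PTs they were those of Prdx1 and of Gstm2 (−0.79, −3.33 to 1.75), which had 1 to 28 UMIs a library.

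Gpx1 in PT1 and Prdx1 in PTs are genes the study listed for this experiment. The paper reported Gpx1 as significantly lower in knockout kidneys, by a Wilcoxon test over the cells of a cluster. The test here took libraries as replicates, so the 2 results rest on unlike measures of spread. With the levels of Gpx1 given above, the KO over WT log2 fold change in PT1 was −0.34 (95% interval −1.70 to 1.01), and without WT mix it was 0.54. Prdx1 in PTs had 1934, 4309 and 1423 CPM in KO female, KO male and KO mix and 2253 and 1483 CPM in WT female and WT mix. KO male alone stood above the WT libraries, and the KO over WT log2 fold change was 0.52 (95% interval −0.83 to 1.87). Without KO male it was −0.14, with the sex composition of the library as a block −0.12, and in female cells alone −0.10.

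In PTc the lowest p values were those of Gstm4 (1.07, 95% interval −0.31 to 2.45, 2 to 22 UMIs a library) and Gstm1 (−0.46, −1.24 to 0.31), and in PT2 those of Gsta4 (−1.42, −3.99 to 1.15) and Gstm5 (−0.35, −1.06 to 0.37). With the sex composition of the library as a block, 1 member passed the threshold in LOH, Gpx3, at a KO over WT log2 fold change of 0.48 ± 0.08 (SE; edgeR adjusted p = 0.00220), against 0.0004 without the block. Over all genes that fit called 13 of 9599 in LOH, 9 of 6425 in PT1, 9 of 6891 in PT2, 35 of 9610 in PTc and 0 of 10836 in PTs, against 0 in each without the block. The proximal tubule marker Miox (0.59) and the haemoglobin gene Hba-a1 (1.49) passed in LOH in the same fit. The part of RNA from other cells in this was not tested. In PTc the sex genes Xist (0.88), Ddx3y (−1.68) and Kdm5d (−3.10) passed. The block puts KO mix and WT mix at 1 level, although 22.7% and 67.9% of their called cells were male. It therefore does not hold sex equal, and it leaves few degrees of freedom among the 5 libraries. In the other 4 types fitted with this block (PT1, PT2, PTs and PTc) no member passed.

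Members passed in both directions between the sexes, above all in PTs, where alpha-class transferases were lower in males and Ggt1 and Gstp3 higher. Cells were called female with Xist and no Y-linked UMI, or male with a Y-linked and no Xist UMI, and the sums of called cells were compared within 3 pairs, which share genotype and run: KO male with KO female, the male with the female cells of KO mix, and the male with the female cells of WT mix. The male cells of the single-sex pair come from another library than its female cells. In KO mix and in WT mix both sums come from the same library. The p-values of these tests therefore measure the spread of the sex difference over at most 3 pairs, which edgeR moderates with the spread of all genes. In PTs, 7 of 36 members were higher in males (9.86% of all 7853 genes were) and 12 were lower (9.03% of all genes). The median log2 fold change of the members was −0.06 (all genes −0.008). Without the pair as a block, 12 members passed in place of 19.

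Alpha-class transferases, which conjugate lipid aldehydes and carry part of a general peroxidase activity, were far lower in male PTs cells. Gsta1 had 1.94, 7.63 and 3.78 CPM in PTs of KO male, KO mix males and WT mix males, against 205, 117 and 136 CPM in KO female, KO mix females and WT mix females, and 272 CPM in WT female, which has no male partner. The groups were far apart, and the log2 fold change was −5.52 ± 0.36 (SE; edgeR adjusted p = 5.49e-07). Gsta4 had 2.21, 0 and 2.84 CPM in the male sums (a count of 0 allows up to 3.81 CPM in KO mix males) and 65.8, 23.6 and 21.7 CPM in the paired female sums, with 95.9 CPM in WT female (−4.46 ± 0.37, edgeR adjusted p = 4.85e-08). Gsta3 was lower by less, at 46.2, 22.9 and 32.2 CPM in males against 206, 118 and 122 CPM in paired females (−2.00 ± 0.17, edgeR adjusted p = 5.52e-08).

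Gsta2 was the most abundant alpha member in female cells. Its level in PTs was 18, 28.0 and 19.9 CPM in KO male, KO mix males and WT mix males, against 2165, 588 and 619.5 CPM in KO female, KO mix females and WT mix females, and 2339 CPM in WT female. No male sum came near a female sum, yet the edgeR adjusted p was 0.0710 (log2 fold change −5.60, 95% interval −8.75 to −2.45), and the gap was wider in the single-sex pair than in the mixed libraries. It passed the threshold in 5 of 8 alternative fits. Female PTs cells of the single-sex libraries (run 2) also stood above those of the mixed libraries (run 3).

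Gsta1 and Gsta2 lie near each other on chromosome 9 (GRCm38, 78230656 to 78242684, forward strand, and 78331018 to 78355788, reverse strand). Their last 500 bases share 50-base windows with each other and with neighbouring alpha-class models (90% and 51% of windows), so reads of one may be counted to the other or lost. Because both had far lower levels in male cells, the 250 bases before the RefSeq start of each (GRCm38.p6) are shown, 5′ to 3′, with capitals for runs of at least 12 bases that both windows hold in aligned positions. Of 237 aligned columns 177 were identical (74.7%), and the longest shared run is 29 bases. The Gsta2 window lies inside the annotated gene, before a start whose bases are found near the 5′ end of an annotated transcript.
Gsta1, chr9:78230419-78230668, forward strand: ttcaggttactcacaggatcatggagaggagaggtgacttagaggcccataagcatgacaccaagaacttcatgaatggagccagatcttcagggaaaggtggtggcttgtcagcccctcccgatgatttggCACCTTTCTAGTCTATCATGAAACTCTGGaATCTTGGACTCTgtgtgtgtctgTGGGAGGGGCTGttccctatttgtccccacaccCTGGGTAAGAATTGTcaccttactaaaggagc
Gsta2, chr9:78347146-78347395, reverse strand: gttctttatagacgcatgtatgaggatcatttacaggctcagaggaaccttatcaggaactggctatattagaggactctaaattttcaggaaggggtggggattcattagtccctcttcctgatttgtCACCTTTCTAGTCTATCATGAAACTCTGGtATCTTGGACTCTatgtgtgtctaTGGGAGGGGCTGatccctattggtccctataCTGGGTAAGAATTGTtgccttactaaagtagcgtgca
Neither window holds the letters TGACNNNGC (the core of the antioxidant response element bound by NRF2), AGAACA (a half-site of the androgen receptor) or GTTAAT (a half-site of HNF1) on either strand. Over all 32841 RefSeq promoter windows of that length, 10.2%, 16.1% and 6.43% hold these letters, and among the 40 members that have a window 6, 7 and 1 do.

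Other transferases were also lower in male PTs cells. Mgst3, a microsomal enzyme of lipid peroxide metabolism, had 162, 104 and 96.5 CPM in KO male, KO mix males and WT mix males and 516, 337 and 312 CPM in their paired females (log2 fold change −1.54 ± 0.13, edgeR adjusted p = 5.70e-08). The omega-class Gsto1 (−4.72 ± 0.43) was near 0 in males, at 1.11, 0 and 0.946 CPM, against 29.4, 31.7 and 21.7 CPM in paired females. Gstm7 (−4.57 ± 0.62) rested on 3 UMIs in males and 94 in paired females, a ratio of 0.0384 with an exact counting interval of 0.00777 to 0.116. Mgst1 (−3.03), Gstt1 (−1.36), Gstm5 (−0.89) and Gstk1 (−0.69) were lower too. Outside the transferases, Prdx4 (−1.39) of the endoplasmic reticulum, a gene on the X chromosome, and Txnrd1 (−0.53) were lower in males.

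The members higher in male PTs cells included genes of glutathione synthesis (Gss, Gclc) and of its breakdown at the cell surface (Ggt1). Ggt1 had 1168, 750.1 and 884 CPM in KO male, KO mix males and WT mix males, against 519, 576 and 573 CPM in paired females and 499 CPM in WT female, and the sums did not overlap (log2 fold change 0.88 ± 0.14, edgeR adjusted p = 2.39e-04). Gss (0.82 ± 0.15) had 337, 156 and 216 CPM in males against 190.2, 131 and 114 CPM in paired females, higher in each pair but with sums that overlap between libraries. Gclc (0.66 ± 0.14) had 114, 156 and 158 CPM in males and 81.3, 118 and 97.8 CPM in paired females. Prdx5 (0.61 ± 0.09) had 3931, 3092 and 2915 CPM in males and 2621, 2405 and 2171 CPM in paired females, with no overlap. Gstm1 (0.51) and Gstp1 (0.89) were also higher, Gstp1 with 17 to 63 UMIs in the male sums and 75.2% of its 3′ windows shared with a close copy.

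Gstp3, a pi-class transferase, was higher in male PTs cells. It had 304, 50 and 63 UMIs in KO male, KO mix males and WT mix males (84.2, 63.6 and 59.6 CPM), against 0, 2 and 3 UMIs in KO female, KO mix females and WT mix females (0, 1.48 and 8.15 CPM) and 0 UMIs in WT female. A count of 0 allows up to 0.621 CPM in KO female and 0.711 CPM in WT female. The female UMIs came only from the mixed libraries, which also hold male cells, and the part of free RNA in them was not tested. The log2 fold change was 6.61 (95% interval 4.39 to 8.82, edgeR adjusted p = 0.00778), and it passed in 8 of 8 alternative fits, at 4.48 to 8.34. The fitted value rests on the 0 UMIs of KO female and is no bound. In PTc the male sums had 8, 1 and 3 UMIs (9.09, 3.00 and 5.77 CPM). Gstp3 lies on chromosome 19 (GRCm38, 4057477 to 4059569, reverse strand), and none of the 50-base windows in its last 500 bases occurs in another gene. The 250 bases before its RefSeq start, which lies inside the annotated gene, are shown because its UMIs came almost only from male cells. The bases after that start were not found near the 5′ end of an annotated protein-coding transcript of the gene. The capitals mark TATAA, letters that 22.8% of all promoter windows hold on either strand.
Gstp3, chr19:4059448-4059697, reverse strand: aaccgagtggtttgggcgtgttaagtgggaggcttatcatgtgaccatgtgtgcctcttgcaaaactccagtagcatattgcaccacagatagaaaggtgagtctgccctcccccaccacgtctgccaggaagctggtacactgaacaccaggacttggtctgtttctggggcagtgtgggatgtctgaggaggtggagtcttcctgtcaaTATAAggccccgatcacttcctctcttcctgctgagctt

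Gpx3 did not pass in PTs, although its sums did not overlap. It had 1857, 4373 and 5099 CPM in KO male, KO mix males and WT mix males, against 6053, 6905 and 8258 CPM in paired females and 5942 CPM in WT female. The log2 fold change was −0.87 (95% interval −1.73 to −0.01, edgeR adjusted p = 0.161). In PTc the sums overlapped (9603, 15653 and 16434 CPM in males, 14108, 16051 and 16371 CPM in paired females, −0.21 ± 0.11). Gpx1 had 1318, 2989 and 3027 CPM in PTs of males and 1597, 3234 and 3141 CPM in paired females (log2 fold change −0.002, 95% interval −0.20 to 0.19). Prdx1 in PTs had 4316, 1573 and 1493 CPM in males and 1859.8, 1274 and 1206 CPM in paired females (0.76, edgeR adjusted p = 0.0711).

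**Figure D3:**
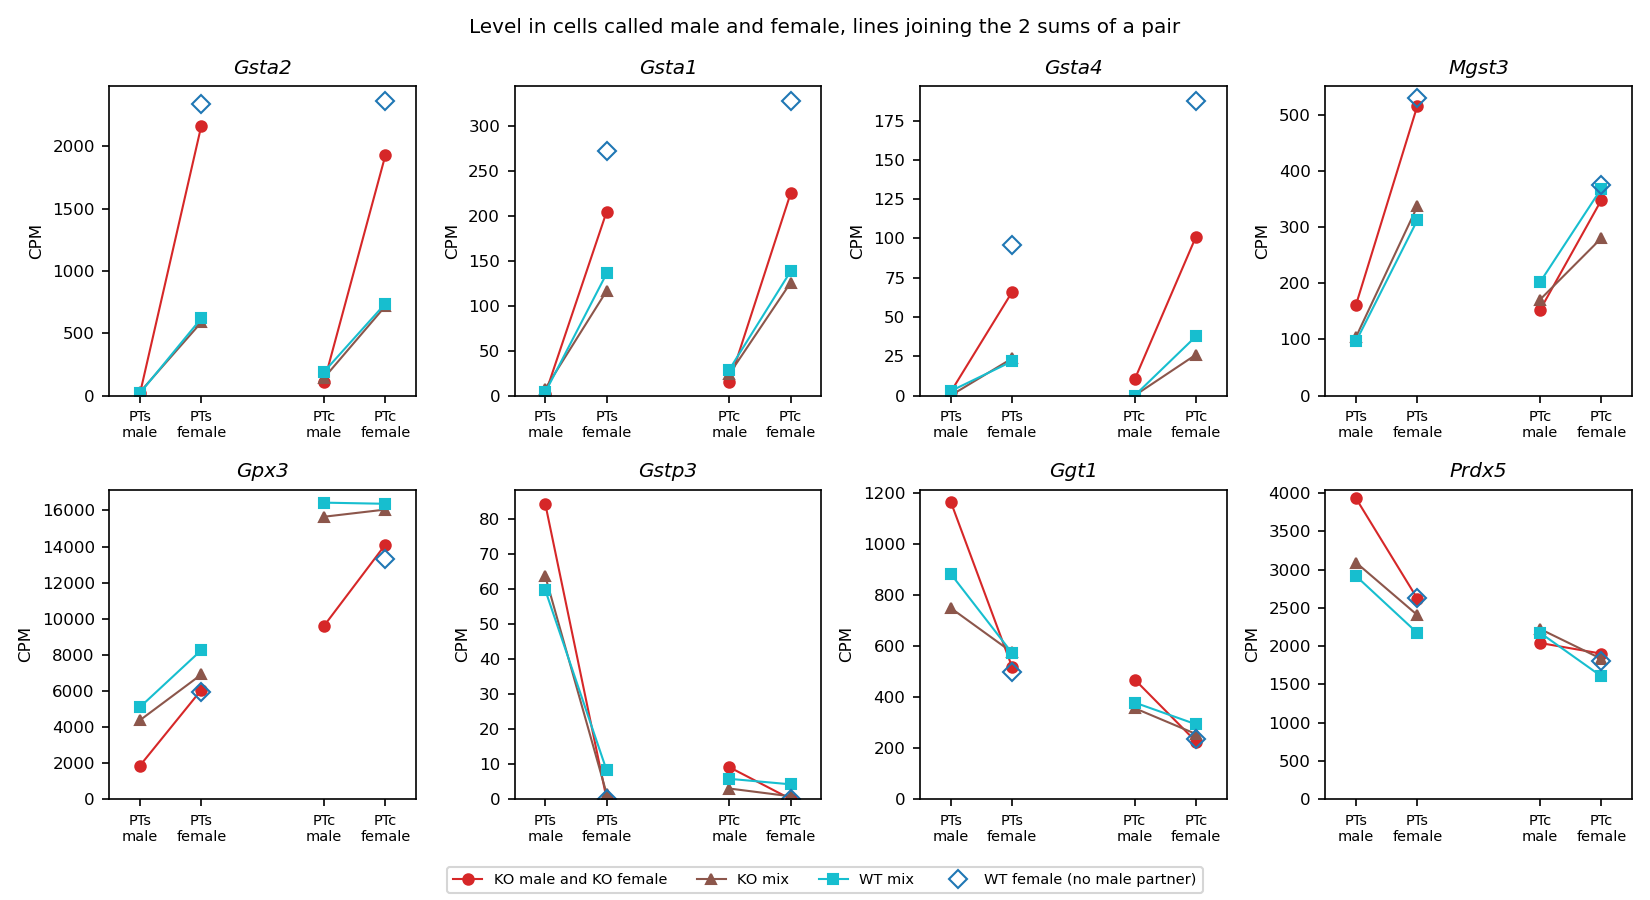
Level (CPM) of 8 members in cells called male (left) and female (right) in PTs and PTc, with a line joining the 2 sums of a pair and open diamonds for WT female, which has no male partner. The lines fall to near 0 on the male side for Gsta2, Gsta1 and Gsta4 in PTs and on the female side for Gstp3.

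The overlap of the sums was also counted without a model. In PTs all male sums lay below all female sums, WT female included, for 14 of 37 members (15.5% of all genes at 10 CPM or more) and above them for 4, Gstm1, Ggt1, Prdx5 and Gstp3 (6.41% of all genes). In PTc 9 of 35 members lay below (4.31% of all genes) and 2, Ggt1 and Prdx5, above (4.74%). In PT1 8 of 39 members lay below (10.2% of all genes) and 7 above (12.1%), and in PT2 5 of 37 below (7.94%) and 8 above (7.48%). In LOH none of 41 members separated in either direction (2.21% of all genes below, 1.86% above). Nuclear RNA also differed with sex in the single-sex pair, where Malat1 and Neat1 summed to 33833 CPM in PTs of KO male and 59360 CPM in KO female. In the mixed libraries the sums were 15412 CPM in males and 17171 CPM in females of KO mix, and 17304 CPM in males and 19067 CPM in females of WT mix. Their part in the calls was not tested. In PT1 the gap was wider in both pairs, as given below. Without the single-sex pair 21 of 36 members passed in PTs, and 1145 of 6755 genes.

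In PTc, 1 of 34 members was higher in males (2.9% of all 6508 genes), Ggt1, and 9 were lower (2.46% of all genes). Ggt1 had 469, 357 and 379 CPM in males and 226, 255 and 293 CPM in paired females (log2 fold change 0.66 ± 0.14, edgeR adjusted p = 2.43e-04). Gsta1 had 14.8, 24.0 and 28.8 CPM in males and 225, 126 and 138 CPM in paired females, again with no overlap (−3.09 ± 0.25, edgeR adjusted p = 1.01e-16). Gsta4 (−3.76), Mgst1 (−1.95), Gsta3 (−1.59), Gsto1 (−1.20), Mgst3 (−0.98), Prdx4 (−0.98), Gstk1 (−0.87) and Gstm1 (−0.64) were lower as well. Gsta2 had 107, 141 and 190.3 CPM in males and 1926, 717 and 738 CPM in paired females and did not pass (−2.95, 95% interval −5.85 to −0.06, edgeR adjusted p = 0.340). DESeq2 called 5 members in PTc, and edgeR without the pair as a block 3. In both PTs and PTc, 8 members were lower in males (Gsta1, Gsta3, Gsta4, Gstk1, Gsto1, Mgst1, Mgst3 and Prdx4), 1 was higher (Ggt1) and 1, Gstm1, was higher in PTs and lower in PTc. The PTc calls of Gsta1 and Gsta3 passed in 7 of 7 alternative fits, Gsta4 and Mgst3 in 6, and Mgst1 and Ggt1 in 5. Gstk1 and Gstm1 passed there in 4 of 7, and Gsto1 and Prdx4 in 3 of 7. In PTs Gstm1 passed in 4 of 8.

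The difference of the male effect between PTs and PTc was tested itself. It passed for 4 of 36 members, 1 of them with a more positive effect in PTs (0.496% of all 8066 genes) and 3 with a more negative one (1.33%). Gstm1 had 243, 266 and 237 CPM in males and 186, 180.0 and 223 CPM in paired females in PTs, but 64.8, 98.9 and 100.0 CPM in males and 128, 115 and 138 CPM in paired females in PTc. Its effects thus had opposite signs, and their difference was 1.16 ± 0.24 (SE; edgeR adjusted p = 0.00289). The differences for Gsto1 (−3.48 ± 0.64), Gstm7 (−3.98 ± 1.08) and Gstt1 (−0.98 ± 0.27) were negative. Without the KO single-sex pair 9 members passed, and without either other pair 2. The male effect of Gsta1 was negative in both types, and its difference between them did not pass (−2.42 ± 0.77, edgeR adjusted p = 0.250).

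**Figure D4:**
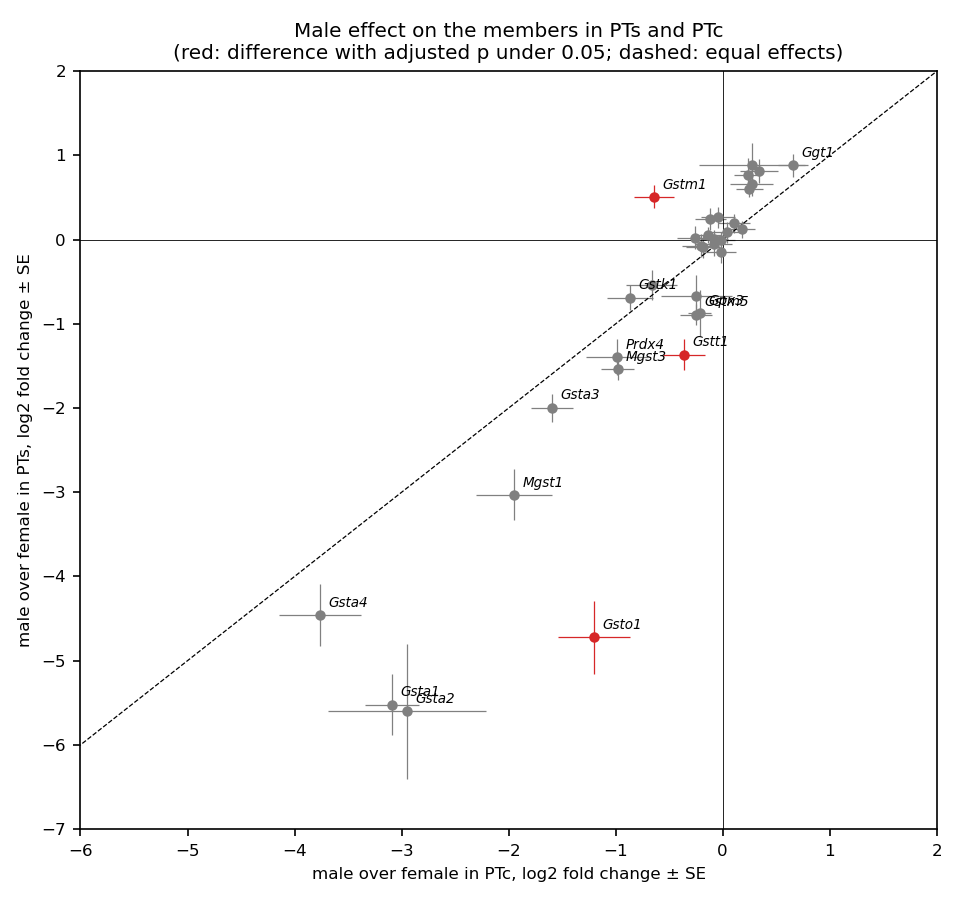
Male over female log2 fold change (± SE) in PTs (vertical) against that in PTc (horizontal) for the 34 members tested in both, with the dashed line marking equal effects. Red points are members whose difference between the types passed the threshold, among them Gstm1, higher in males in PTs (0.51) and lower in PTc (−0.64).

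PT1, PT2 and LOH gave fewer calls. In PT1 only 2 pairs had 20 called cells of each sex, 1282 genes were tested, and the test took its spread almost wholly from all genes. Only 21 of the 378 KO female PT1 cells were called. In these PT1 sums Malat1 and Neat1 reached 41798 CPM in KO female and 16038 CPM in KO mix females. The male sums had 7398 CPM in KO male and 2232 CPM in KO mix males. The called female cells thus held more nuclear RNA, and its part in the PT1 calls was not tested. There 1 of 25 members was higher in males (2.89% of all genes), Prdx1 at 0.93, and 4 were lower (3.35%), Gsta1 (−3.69), Gsta2 (−3.60), Gsta3 (−2.30) and Gpx3 (−1.23). Gpx3 had 2035 and 5006 CPM in KO male and KO mix males and 5380.4 and 8136 CPM in KO female and KO mix females. DESeq2 called 1 member in PT1, and edgeR without the pair as a block 0. In PT2, also with 2 pairs, 0 of 27 members and 0% of 2641 genes passed with edgeR, 5 members had an unadjusted p under 0.05, and DESeq2 called 0 members. In LOH 0 of 32 members passed with edgeR (0.146% of all 4781 genes were higher, 0.188% lower), 2 had an unadjusted p under 0.05, and DESeq2 called no gene. Gpx3 in LOH had a log2 fold change of −0.90 ± 0.23 without passing (edgeR adjusted p = 0.273), at a level near that of free proximal tubule RNA.

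Other genes of these pathways were read from lists of names. In male against female PTs cells, 8 of 21 tested genes of the glutathione cycle, transport and breakdown (28 in the list) were higher and 3 lower, with a list median of −0.08 (all genes −0.008). Over all genes in PTs 9.86% were higher and 9.03% lower, and list counts are set against these shares without a test. Cbs, which starts the making of cysteine from homocysteine, was higher (2.58), as was the mitochondrial sulphur dioxygenase Ethe1 (1.02), while the exporter Abcc4 (−5.07) and the transporter subunit Slc3a2 (−1.46) were lower. Of 18 tested genes around NRF2, the master regulator of antioxidant genes, 6 were higher and 2 lower (median 0.14). Malic enzyme Me1 (1.23), haem oxygenase Hmox1 (1.94) and the autophagy receptor Sqstm1 (0.75) were higher, and the ferritin light chain Ftl1 (−0.54) was lower. Of 10 other peroxide and thioredoxin genes, 2 were higher, Msrb1 (0.91), a methionine sulphoxide reductase, and the thioredoxin-like Txnl1 (0.69). Of 16 tested genes of selenoprotein synthesis and selenium supply, 2 were lower, Selenow (−3.83) and Lrp2 (−0.65), the receptor megalin.

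In PTc, where 2.9% of all genes were higher and 2.46% lower, 1 gene of the glutathione cycle list was higher and 1 lower of 20 tested (Ggct 1.38, Abcc4 −1.38), and of the NRF2 list 1 was higher and 2 lower of 16 (Me1 0.71, Ftl1 −0.44, Txnip −1.06). Catalase (Cat, −0.41) was the only one of 9 peroxide and thioredoxin genes to pass, and of 16 selenoprotein genes Selenop, the selenium carrier, was higher (1.81) and Selenow lower (−1.44). None of these lists had a gene past the threshold between knockout and wild type in any type.

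**Figure D5:**
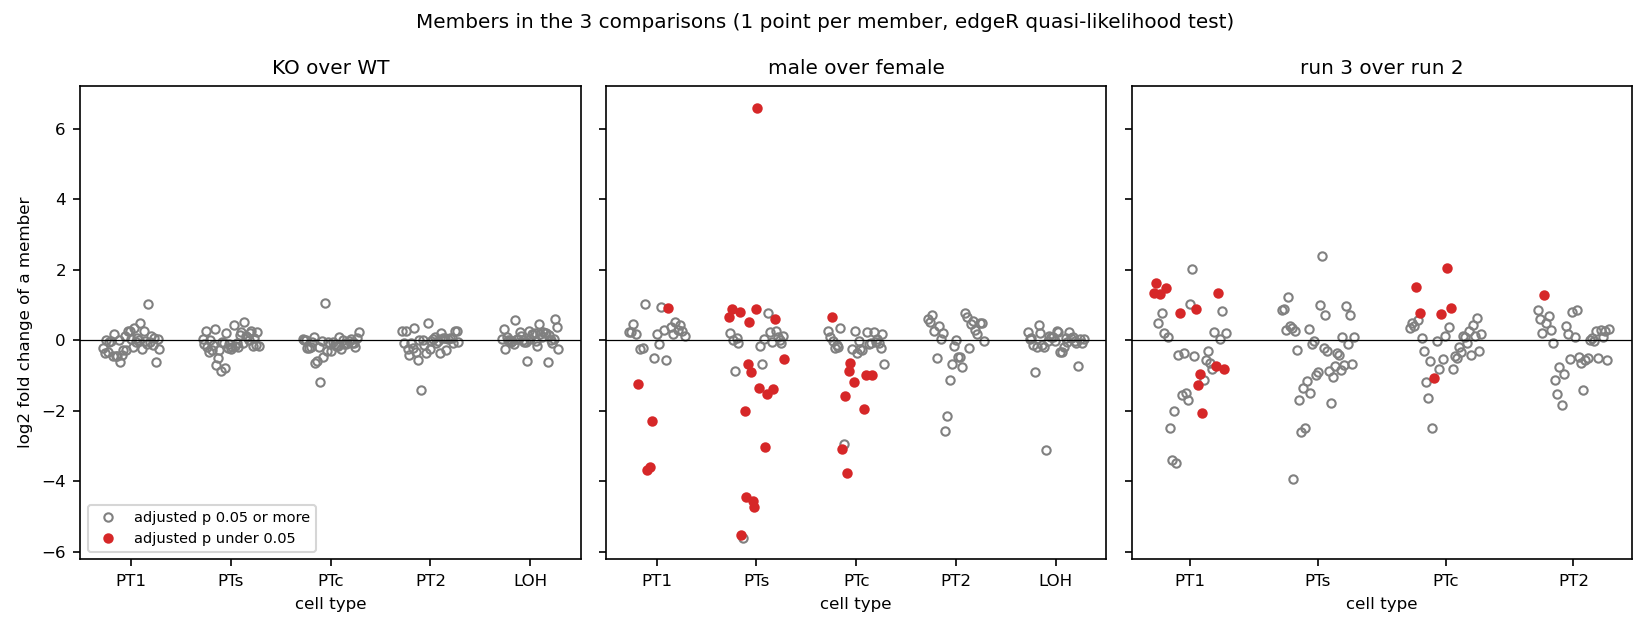
Log2 fold change of each member tested (1 point per member) for KO over WT, male over female and run 3 over run 2 in proximal tubule types and LOH, by edgeR's quasi-likelihood test. Red points passed an adjusted p of 0.05, which 0 members did for KO over WT, 19 in PTs and 10 in PTc for male over female, and 12 in PT1 for run 3 over run 2.

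Run 3, the mixed libraries, was compared with run 2, the single-sex libraries, with genotype as a term. Run goes with the mitochondrial share and with the pooling of sexes in a library, which cannot be told apart from it. The sex of the cells was held equal only in PTs and PTc, in a separate fit on cells called female. No such fit was made in PT1 or PT2, so the part of sex in the run calls there was not tested. In PT1, 7 of 37 members were higher in run 3 (8.06% of all 5646 genes) and 5 were lower (7.86%). Gclm, the modifier subunit of glutathione synthesis, had 666 and 668 CPM in KO mix and WT mix, against 208, 190.0 and 247 CPM in KO female, KO male and WT female, with no overlap (log2 fold change 1.63 ± 0.16, edgeR adjusted p = 0.00140). Gsr (1.48), Gclc (1.36), Sod1 (1.34), Gpx1 (1.32), Gstt2 (0.90) and Gstm1 (0.77) were higher too. Mgst1 (−2.06), Gstt3 (−1.27), Gstz1 (−0.95), Txn1 (−0.82) and Prdx6 (−0.72) were lower. With each library left out in turn, 0 to 32 members passed in PT1, 0 without KO female and 32 of 37 without KO male, where 2206 of 5836 genes passed in all. Of the listed pathway genes in PT1, 3 of 19 of the glutathione cycle were higher in run 3 and 3 lower, and of 17 around NRF2 the ferritin heavy chain Fth1 (1.39) and Sqstm1 (1.46) were higher and none lower (list median 0.67, all genes 0.014). Over all genes in PT1 8.06% were higher and 7.86% lower.

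Gclm is the member with the largest positive run effect in PT1, and its window is shown for the matches it holds. The 250 bases before its RefSeq start (GRCm38.p6) carry capitals at the reverse complement of TGACNNNGC, 134 bases before the start, and of AGAACA, 54 bases before it. These are letter matches only, held by 10.2% and 16.1% of all promoter windows.
Gclm, chr3:122245307-122245556, forward strand: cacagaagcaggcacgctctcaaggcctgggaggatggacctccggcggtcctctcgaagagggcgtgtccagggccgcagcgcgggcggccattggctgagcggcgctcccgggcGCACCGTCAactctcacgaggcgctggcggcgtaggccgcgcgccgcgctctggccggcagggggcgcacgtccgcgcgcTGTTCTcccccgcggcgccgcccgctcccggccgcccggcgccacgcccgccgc

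Gpx1 was called in the same direction in 3 types. Beside PT1 it was higher in run 3 in PTc (1.52 ± 0.17, edgeR adjusted p = 0.00220) and in PT2 (1.28 ± 0.18, adjusted p = 0.00579), and in PTs it missed the threshold (1.23, 95% interval 0.82 to 1.64, adjusted p = 0.0597). In PTc, 5 of 36 members were higher (4.95% of all genes), Gstp1 (2.05), Gpx1, Gstt2 (0.92), Gpx4 (0.77) and Gstm5 (0.76), and 1 was lower (3.18%), Gstk1 (−1.08). In PT2 Gpx1 was the only one of 34 members to pass (2.26% of all genes were higher and 1.43% lower). In PTs 0 of 39 members passed with edgeR (0.474% of all genes were higher and 0.174% lower), 11 had an unadjusted p under 0.05, and DESeq2 called 5. Within cells called female 21 of 37 members passed in PTs (1753 of 9496 genes) and 17 of 35 in PTc (1506 of 8367 genes). Leaving out each library in turn gave 0 to 19 members in PTc, 0 to 17 in PT2 and 0 to 27 in PTs, the highest count each time without KO male. Over all genes the ranges were 0 to 2364 in PTc, 25 to 1367 in PT2 and 0 to 3226 in PTs. In PTc 0 or 1 member passed without any other library.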

How the data were processed

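Single cells of 5 kidney libraries were captured for 3′ UMI counting. Per the paper's methods and the submitters' processing notes, the authors aligned reads to mm10 and counted UMIs with Cell Ranger 4.0.0, and integrated and clustered the libraries with Seurat 3.2.2.9001. They left out genes seen in few cells, and cells with few UMIs or a high mitochondrial percentage. The deposited counts are raw UMIs per gene and cell. The percent of mitochondrial UMIs, the doublet score (a fraction from Scrublet) and the cell type of each cell were also deposited by the authors. The embedding was not used.

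UMIs were summed per library and type where at least 20 cells were present, and CPM taken over all UMIs of the sum. Genes passing filterByExpr were tested by edgeR 4.0.16 (quasi-likelihood test, TMM scaling, R 4.3.3) over all genes with Benjamini-Hochberg adjustment at 0.05, and SEs were derived from p and the degrees of freedom. KO was set against WT over the 5 libraries without covariates, males against females with the pair as a block, and run 3 against run 2 with genotype as a term. A cell was called female with an Xist UMI and none of Ddx3y, Eif2s3y, Kdm5d or Uty, and male the other way round, and these genes were left out of the sex tests. Alternatives used DESeq2 1.42.0, limma 3.58.1 (voom), other cell filters (at most 25% mitochondrial UMIs, doublet score up to 0.2), no filter on low counts and each library or pair left out. Doublets were kept otherwise.

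The sources pair KO female with WT female and KO mix with WT mix by sex composition and run. Deviations from the group means correlated at 0.54 to 0.76 for the first pair and 0.53 to 0.74 for the second over PT1, PT2, PTs, PTc and LOH, so the sex composition served as the block, with KO male left unpaired.

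Levels are described for members at 100 CPM or more in their highest type. Gstp3, Gsto1 and Gstm7, under that level, are described through the sex test, and Gpx6 (levels), Txnrd1 (levels and sex) and Gstk1 (sex, PTs) were added after their values were seen. The 4 promoters shown were chosen after the values were seen. Named in KO against WT are the 2 members with the lowest p in each of PT1, PTs, PTc, PT2 and LOH, with Gpx1 in PT1 and Prdx1 in PTs. For sex and run, the named ones are the 10 largest changes in each direction past the threshold. The members and lists were chosen with earlier results of these data known. Overlap between groups was read at 10 CPM or more. Limits for a count of 0 assume 3 counts, and these and counting intervals (95%) cover counting error only. Promoters are RefSeq windows (GRCm38.p6), aligned with Biopython 1.88. Sums and plots used Python 3.11.15, numpy 2.4.6, pandas 2.3.3, scipy 1.17.1 and matplotlib 3.10.9.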

Additional observations from a re-analysis of the deposited data

Results flagged for a closer look

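The male over female effect on 4 members differed between PTs and PTc by a test of the difference itself, which is why they are listed. Gstm7 had a difference of −3.9808 (log2, PTs minus PTc; edgeR adjusted p = 0.0426), which passed in 0 of 3 alternatives and rested on 3 male UMIs in PTs. Gsto1 had a difference of −3.4846 (edgeR adjusted p = 6.40e-04) and passed in 4 of 4 alternatives. Gstt1 had a difference of −0.9834 (edgeR adjusted p = 0.0417) and passed in 1 of 5. Gstm1, with opposite signs in the types, had a difference of 1.1602 (edgeR adjusted p = 0.00289) and passed in 3 of 5.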

How the results depend on the processing

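Between KO and WT no member passed when any 1 library was left out (0 to 0 in PT1, PT2, PTs, PTc and LOH). With the sex composition of the libraries as a replicate block 1 member (Gpx3) passed in LOH, and with the run as a block none did. The block changed no other call among members. With each library left out in turn, the log2 fold change ranged between −0.92 and 0.54 for Gpx1 and −1.005 and 0.0613 for Sod3 in PT1, −2.18 and 0.55 for Gsta4 in PT2, and −1.47 and 0.94 for Gstm2 and −0.14 and 0.79 for Prdx1 in PTs. The direction turned without WT mix for Gpx1 and Sod3, without WT female for Gsta4 and Gstm2 and without KO male for Prdx1, which also turned in female cells (−0.10) and with the block (−0.12). None of these passed the threshold, and the causes were not tested.

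For male against female, counts of members called without a replicate block were 12 in PTs, 3 in PTc, 0 in PT1 and 1 for the difference between PTs and PTc. DESeq2 gave 5 in PTc, 1 in PT1 and 1 for the difference. Without a filter on low counts 3 passed in PT1, 1 in PT2 and 1 in LOH, and with all cells of the single-sex libraries 2 in PT2. Leaving out each pair gave 18 to 21 in PTs, 7 to 11 in PTc, 0 to 2 in LOH and 2 to 9 for the difference, whose alternatives were chosen after seeing the data. Over all genes in PTs, edgeR called 1483, DESeq2 655 and edgeR without the block 468, and in PTc 349, 86 and 70. The main test called 80 genes in PT1 (DESeq2 17, no filter on low counts 36, no block 0), 0 in PT2 (DESeq2 11, no filter 97, all cells of the single-sex libraries 141) and 16 in LOH (DESeq2 0).

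For run 3 against run 2, female cells gave 17 members in PTc and 21 in PTs, cells with at most 25% mitochondrial UMIs 2 in PTc, and DESeq2 5 in PTs. Leaving out each library gave 0 to 32 in PT1, 0 to 17 in PT2, 0 to 19 in PTc and 0 to 27 in PTs. Over all genes in PTs, edgeR called 67, DESeq2 431 and female cells 1753, and in PTc 739, 375 and 1506 (320 with at most 25% mitochondrial UMIs). In PT1 edgeR called 899 and DESeq2 495, and in PT2 222 and 95.

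Of the members at 100 CPM or more, 23 peaked in a proximal tubule type under each filter on cells and on CPM outside mitochondrial UMIs (chosen after seeing the data), and 22 to 24 with each library left out. Low counts (under 10 UMIs in some sums of Gstm7, Gsto1, Gsta4 and Gstp3), 2 pairs in PT1 and PT2, and only 2 WT libraries limit these values.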
